A study of Saccharomyces cerevisiae CEN.PK113-7D with 6 samples.

Results

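The mitochondrial ribosome, or mitoribosome, is the separate ribosome inside mitochondria. Its proteins in budding yeast are nearly all encoded in the nucleus, made in the cytosol and imported, while its ribosomal RNAs come from mitochondrial DNA. It translates the few messages of mitochondrial DNA, most of which encode core subunits of the respiratory chain and of ATP synthase. Many of its proteins have a counterpart in bacterial ribosomes, and others are found only in mitochondria.

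The genes described here are those of Saccharomyces cerevisiae whose current symbol is MRP, MRPL, MRPS or RSM followed by a number, together with RML2. MRP8 was left out because it is not a ribosomal protein. The rule gives 67 genes, 39 for the large and 28 for the small subunit, and uses no measured value. Of these, 66 had a probe set, 1 each, among 5449 genes tested. MRP35, a large-subunit gene, was not analysed here, which left 38 large-subunit and 28 small-subunit members.

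Transcripts were measured on 6 single-channel GeneChip arrays with biotin-labelled total RNA of the haploid, wild-type laboratory strain CEN.PK113-7D grown on glucose. In a chemostat, culture is fed and drained continuously so that cells grow at a constant rate, and 3 arrays (replicates 4, 8 and 9) hold such samples. The other 3 arrays (replicates 1, 2 and 3) hold samples of batch culture, which receives no fresh medium. The sources used here do not give the dilution rate, the limiting nutrient or the stage at which batch cells were taken. They do not say whether replicates came from separate cultures either, so the p-values reflect the spread among these arrays alone, and that spread may be technical. All values are deposited log2 signals, changes are chemostat minus batch on the log2 scale, and each mode has n = 3 arrays.

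Culture mode separated the arrays. The first principal component over all genes held 97.3% of the variance, and the lowest correlation across genes was 0.995 within chemostat and 0.994 within batch, while the highest between the modes was 0.853. The median signal over genes was 7.95 to 7.97 per array, and the median change over all genes was -0.06. Background was set at 5.93, the 95th percentile of the probe sets for fission yeast on the same arrays. The strain is of mating type a, and STE2, MFA1, MFA2, BAR1 and AGA2, genes of a cells, were above background on all 6 arrays. Of 4 alpha-cell genes, STE3 and SAG1 were also above background on all 6 arrays, MFALPHA1 on 3 and MFALPHA2 on 0. Lying above background therefore does not by itself tell the mating types apart. Several of these genes had unlike levels in the 2 modes. STE2 averaged 8.88 in chemostat and 11.00 in batch, BAR1 7.38 and 8.94, and MFA2 9.85 and 11.18. MFA1 averaged 9.90 in chemostat and 9.94 in batch, and AGA2 9.13 and 8.81. Among the alpha-cell genes, MFALPHA1 averaged 6.55 in chemostat and 5.60 in batch, STE3 7.13 and 6.60, and SAG1 6.98 and 6.69.

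Most mitochondrial ribosomal protein transcripts were lower in the chemostat, by small amounts. Of 66 members, 51 fell, 4 rose and 11 did not pass the test (limma's moderated test, p-values adjusted by Benjamini-Hochberg over all genes, threshold 0.05). The share of all genes called lower was 44.8% and the share called higher was 33.6%, against 77.3% and 6.06% of the members. The median change was -0.31 for the members and -0.06 for all genes. RNA was taken from whole cultures, so less of a transcript in each cell and fewer cells that carry it cannot be told apart.

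The changes were narrow as well as small. They ran from -0.77 for MRPL3 to 0.45 for MRP20, with an interquartile range of 0.28 against 0.66 over all genes. Their size passed 0.5 log2 units in 10 members and 1 log2 unit in 0, whereas 684 of all genes passed 1 log2 unit. When a change of more than 1.5-fold was required (limma's treat, adjusted p under 0.05), 2 members remained lower, MRPL3 and RSM26, and 0 higher. That test called 10.4% of all genes lower and 11.0% higher. Every member lay above background on each array, with signals between 7.30 and 10.06. The median standard error of a member's change was 0.046, so that changes as small as 0.10 passed.

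**Figure D1:**
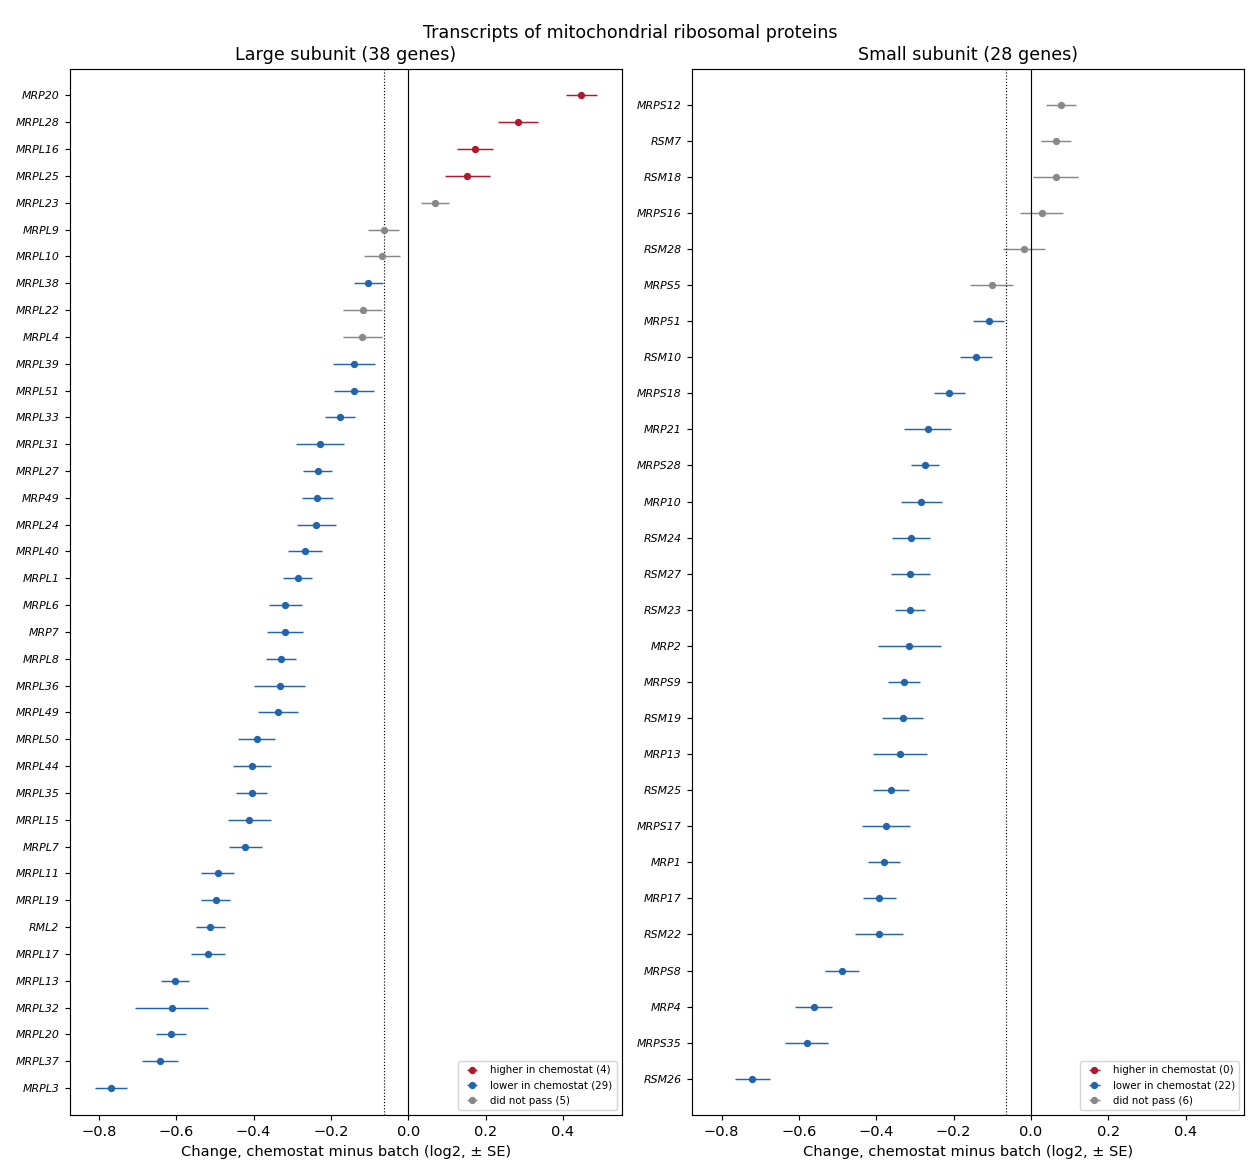
Change of every measured member (chemostat minus batch, log2, bars are limma's SE, n = 3 arrays per group), by subunit and in order of change. The dotted line is the median over all genes, -0.06. Of 38 large-subunit genes 29 lie lower, 4 higher and 5 did not pass. Of 28 small-subunit genes 22 lie lower, 0 higher and 6 did not pass. Over all genes 44.8% were called lower and 33.6% higher.

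Counts and medians were close in both subunits. In the large subunit 29 of 38 members (76.3%) fell and 4 (10.5%) rose, with a median change of -0.30. In the small subunit 22 of 28 (78.6%) fell and 0 rose, with a median of -0.31. Over all genes 44.8% fell and 33.6% rose, with a median of -0.06. At an unadjusted p under 0.05 the count of higher small-subunit members was also 0. The mean signal of the large-subunit members was 8.72 ± 0.029 (SD) in chemostat and 8.99 ± 0.043 in batch. That of the small-subunit members was 8.59 ± 0.020 in chemostat and 8.86 ± 0.058 in batch. Taken array by array, the large-subunit mean minus the small-subunit mean was 0.14, 0.14 and 0.12 on the chemostat arrays, against 0.12, 0.13 and 0.15 on the batch arrays. These ranges overlap. The difference between subunits in the share of rising genes was not tested.

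The arrays within each mode were not interchangeable for these genes. Among the batch arrays, replicate 1 was the highest for 45 of 66 members and replicate 3 the lowest for 48. Over all genes replicate 1 was the highest batch array for 1669 of 5449, and replicate 3 the lowest for 1525. For each gene the gap of an array to the mean of the other batch arrays was taken. The median of these gaps over the members was 0.063 in replicate 1 and -0.071 in replicate 3. Over all genes the same medians were -0.016 and 0.014. In chemostat, replicate 4 was the highest for 48 members, with a median gap of 0.041. Over all genes it was the highest chemostat array for 2178 of 5449, with a median gap of -0.001. These shifts are small beside the median change, and the part they play in single results was not tested. With each array left out in turn, 46 to 53 members fell, 3 to 5 rose, and the median change lay between -0.34 and -0.28.

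**Figure D2:**
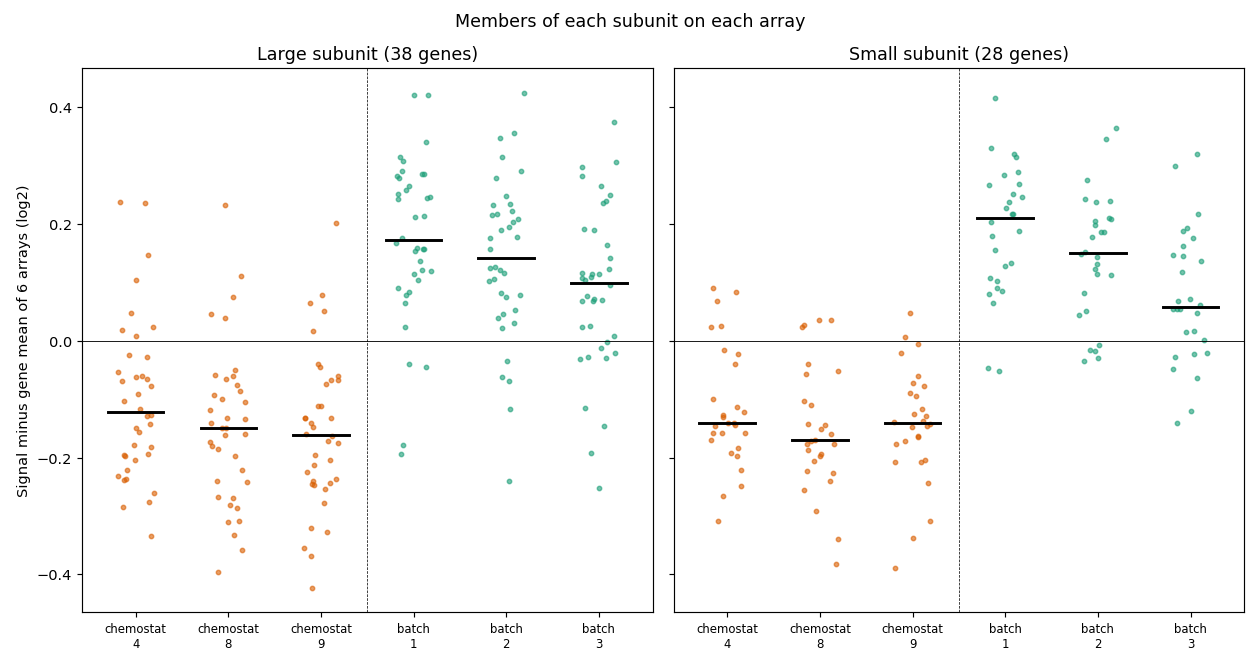
Signal of each member on each array, minus that gene's mean over all 6 arrays (log2), for the large subunit (left) and the small subunit (right). Black bars are medians over the members. Chemostat medians lie below 0 and batch medians above it in both subunits, with batch replicate 3 the nearest to 0 among the batch arrays.

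The largest fall in the large subunit was that of MRPL3, which encodes mL44, a mitochondria-specific protein with a fold like that of ribonuclease III. Its signal was 8.87, 8.81 and 8.78 on the chemostat arrays, against 9.63, 9.56 and 9.58 on the batch arrays. The groups were far apart, and the chemostat level was 0.587 times the batch level (change -0.77, SE 0.042, adjusted p = 8.37e-07). MRPL15, whose protein mL57 has the same kind of fold and pairs with mL44, fell less (-0.41, SE 0.055, adjusted p = 0.000176). MRPL37, the gene of mL54, had 8.50, 8.38 and 8.37 in chemostat, against 9.07, 9.05 and 9.04 in batch. MRPL20, the gene of mL58, had 8.35, 8.33 and 8.31 in chemostat, against 8.93, 8.99 and 8.92 in batch. Neither gene's groups overlapped, and the changes were -0.64 (SE 0.046, adjusted p = 3.92e-06) for MRPL37 and -0.61 (SE 0.039, adjusted p = 1.82e-06) for MRPL20. MRPL13, which encodes mL50, fell by 0.60 (SE 0.036, adjusted p = 1.45e-06), with 8.54, 8.51 and 8.50 in chemostat and 9.14, 9.11 and 9.12 in batch.

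MRPL32 stood among these falls with the widest spread. Its protein, bL32, is known for being matured by the m-AAA protease of the inner membrane before it joins the ribosome. The signal was 8.70, 8.60 and 8.58 in chemostat, against 9.35, 9.36 and 9.004 in batch. All chemostat arrays were lower, but batch replicate 3 lay well below its fellows, and the batch SD of 0.202 was the largest of any member in either mode. The change was -0.61 (SE 0.094, adjusted p = 0.000399).

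Transcripts for proteins of the large subunit's functional centres did not move as one. The regions that follow were assigned after the values were known. Their counts are small and were not tested against the shares of all genes, 44.8% lower and 33.6% higher. The stalk base recruits translation factors, and its genes MRPL11 (uL10) and MRPL19 (uL11) fell by 0.49 (SE 0.044) and 0.50 (SE 0.037). Around the peptidyl transferase centre, where peptide bonds form, RML2 (uL2) and MRP7 (bL27) fell, MRPL16 (uL16) rose and MRPL9 (uL3) did not pass. RML2 had 8.74, 8.70 and 8.74 in chemostat, against 9.27, 9.21 and 9.23 in batch, a change of -0.51 (SE 0.038, adjusted p = 4.63e-06). MRPL16 had 9.29, 9.19 and 9.21 in chemostat, against 9.10, 9.08 and 9.0004 in batch, a change of 0.17 (SE 0.047, adjusted p = 0.00921). Both genes had groups that did not overlap, in opposite directions.

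The tunnel exit, where the new protein leaves towards the inner membrane, held the member that rose most. MRP20 encodes uL23, a protein of the exit rim. Its signal was 8.90, 8.89 and 8.86 in chemostat, against 8.48, 8.42 and 8.41 in batch. Every chemostat array was above every batch array, at 1.36 times the batch level (change 0.45, SE 0.039, adjusted p = 1.22e-05). Of 6 members assigned to the exit, all of the bacterial type, 3 fell, 1 rose and 2 did not pass. Over all genes 44.8% fell and 33.6% rose. No mitochondria-specific member was assigned to the exit here, so these counts may not describe the whole exit. Those that fell were MRPL40 (uL24) by 0.27 (SE 0.043, adjusted p = 0.000512), MRPL8 (bL17) by 0.33 (SE 0.039, adjusted p = 7.97e-05) and MRPL32 (bL32) by 0.61 (SE 0.094, adjusted p = 0.000399), whereas MRPL22 (uL22) and MRPL4 (uL29) did not pass, at -0.12 each (adjusted p = 0.0632 and 0.0561). MRPL22 had 8.67, 8.69 and 8.68 in chemostat, against 8.90, 8.78 and 8.72 in batch. MRPL4 had 8.485, 8.40 and 8.33 in chemostat, against 8.57, 8.51 and 8.49 in batch. In both the chemostat arrays were all lower, by a margin that was thin beside the spread of one mode.

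The 2 remaining rises were both in transcripts of mitochondria-specific proteins. MRPL28, the gene of mL40 in the central protuberance, had 9.07, 8.94 and 8.91 in chemostat, against 8.64, 8.72 and 8.72 in batch (change 0.28, SE 0.052, adjusted p = 0.00115). Also placed in the central protuberance, and picked here with their values known, are proteins of 3 genes that fell, MRPL35 (mL38) by 0.40 (SE 0.040), MRPL7 (uL5) by 0.42 (SE 0.043) and MRPL17 (mL46) by 0.52 (SE 0.043, adjusted p = 9.01e-06). MRPL17 had 8.02, 8.01 and 8.04 in chemostat, against 8.59, 8.56 and 8.47 in batch, far from any overlap. MRPL25, the gene of mL59, had 8.46, 8.43 and 8.41 in chemostat, against 8.38, 8.30 and 8.17 in batch. Its groups were close, with a change of 0.15 (SE 0.058, adjusted p = 0.0386), and the call ended with any 1 array left out other than batch replicate 1 (adjusted p between 0.0623 and 0.101). It also ended when each array was centred on its median gene (adjusted p = 0.0552).

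**Figure D3:**
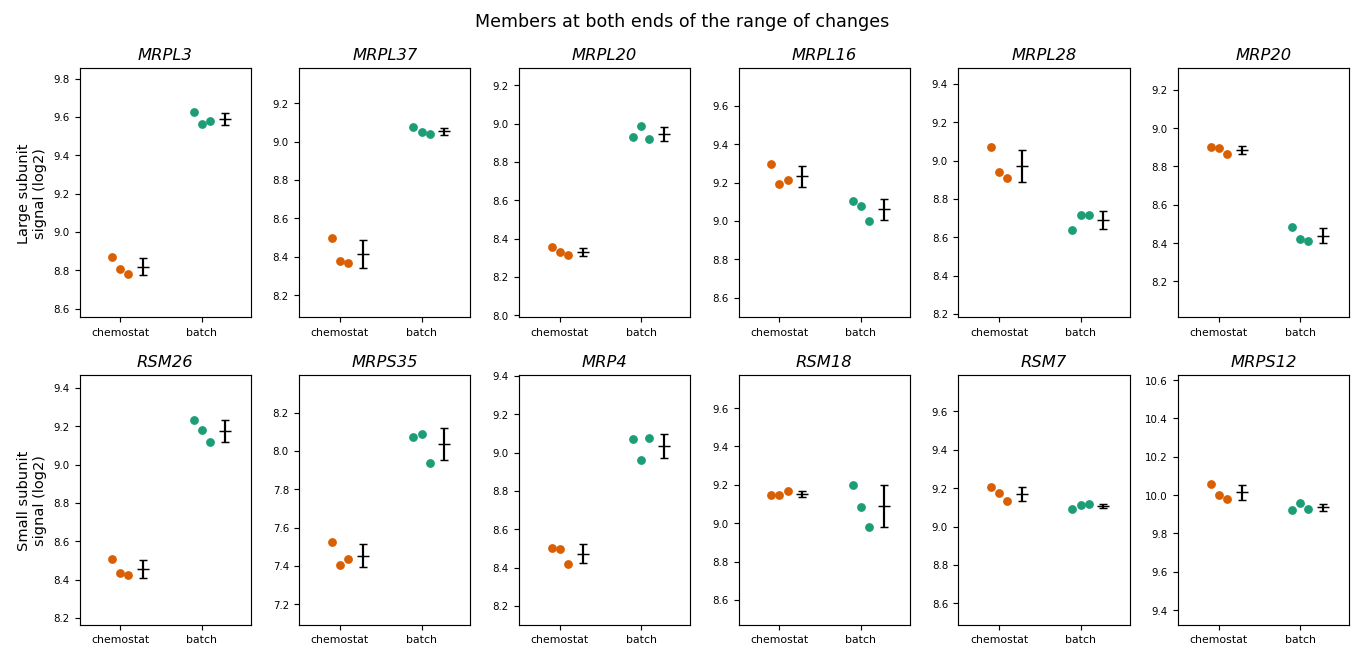
Signal (log2) on each array for the 3 members with the lowest and the 3 with the highest change in each subunit. Points are arrays, black marks are the mean and SD of each mode, and each panel spans the same range of signal. In the large subunit MRPL16, MRPL28 and MRP20 are higher in chemostat; in the small subunit RSM18, RSM7 and MRPS12 did not pass.

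In the small subunit the largest fall was that of RSM26. Its protein, mS42, has the fold of a superoxide dismutase and is partnered by mS43, the product of MRP1, which has the same fold. RSM26 had 8.51, 8.43 and 8.43 in chemostat, against 9.23, 9.18 and 9.12 in batch, a chemostat level 0.607 times that of batch (change -0.72, SE 0.046, adjusted p = 1.96e-06). MRP1 had 8.68, 8.63 and 8.63 in chemostat, against 9.08, 9.02 and 8.98 in batch (change -0.38, SE 0.041, adjusted p = 4.57e-05). Both partners fell with no overlap between modes.

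Further falls came from transcripts of both bacterial-type and mitochondria-specific proteins. MRPS35 (mS45) had 7.52, 7.40 and 7.44 in chemostat, against 8.07, 8.09 and 7.94 in batch (change -0.58, SE 0.055, adjusted p = 1.97e-05). MRP4, whose product uS2 is a bacterial-type protein, had 8.50, 8.50 and 8.42 in chemostat, against 9.07, 8.96 and 9.07 in batch (change -0.56, SE 0.048, adjusted p = 1.06e-05). In each of these genes the modes were clearly apart. MRPS8 (uS8) followed with 8.16, 8.06 and 8.11 in chemostat, against 8.62, 8.63 and 8.54 in batch (change -0.49, SE 0.045, adjusted p = 1.55e-05). RSM22 resembles methyltransferases, and its human counterpart acts in assembly of the small subunit. It had 7.30, 7.39 and 7.42 in chemostat, against 7.85, 7.65 and 7.78 in batch (change -0.39, SE 0.061, adjusted p = 0.000432).

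The small subunit also held a pair of proteins whose bacterial counterparts bind each other, with 1 transcript that passed and 1 that did not. MRP17 encodes bS6, the partner of bS18 from RSM18. MRP17 had 8.64, 8.63 and 8.62 in chemostat, against 9.08, 9.03 and 8.96 in batch, and fell by 0.39 (SE 0.042, adjusted p = 4.41e-05). RSM18 had 9.15, 9.14 and 9.17 in chemostat, against 9.20, 9.09 and 8.98 in batch, groups that overlap (change 0.06, SE 0.058, adjusted p = 0.334). Without batch replicate 1 RSM18 passed as higher, at 0.12 (adjusted p = 0.0471), the 1 small-subunit rise found with an array left out. The difference between the changes of MRP17 and RSM18 was not tested.

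The small-subunit head holds the messenger RNA and transfer RNAs from above. Of the 5 members assigned to it here, all of the bacterial type, 4 fell, while 44.8% of all genes did. MRPS9 (uS9), MRP2 (uS14) and RSM19 (uS19) changed by -0.33, -0.31 and -0.33, and RSM10 (uS10) fell by 0.14 (SE 0.042, adjusted p = 0.0139). RSM10 had 9.25, 9.17 and 9.17 in chemostat, against 9.38, 9.32 and 9.32 in batch, and its call ended without chemostat replicate 8 or 9 (adjusted p = 0.0674 and 0.0521). RSM7, the gene of uS7 in the head, had 9.21, 9.18 and 9.13 in chemostat, against 9.09, 9.11 and 9.12 in batch, and did not pass (change 0.07, adjusted p = 0.150). Its chemostat arrays nonetheless all lay above its batch arrays. MRP51 (bS1) and MRP21 (bS21) are known from yeast genetics for their part in translating the COX2 and COX3 messages, and both fell, MRP21 by 0.27 (SE 0.061) and MRP51 by 0.11 (SE 0.040, adjusted p = 0.035).

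The 11 members that did not pass had changes between -0.12 and 0.08. In the large subunit these were MRPL4, MRPL22, MRPL10, MRPL9 and MRPL23. MRPL10 (uL15) had 9.21, 9.10 and 9.15 in chemostat, against 9.27, 9.22 and 9.18 in batch (change -0.07, adjusted p = 0.201). MRPL9 (uL3) had 9.15, 9.08 and 9.10 in chemostat, against 9.21, 9.16 and 9.15 in batch (change -0.06, adjusted p = 0.173). The groups of both genes overlap, unlike those of MRPL23 (uL13), which had 9.73, 9.72 and 9.70 in chemostat, against 9.64, 9.64 and 9.65 in batch (change 0.07, adjusted p = 0.106).

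In the small subunit the 6 were MRPS5, RSM28, MRPS16, RSM18, RSM7 and MRPS12. MRPS12 encodes uS12 of the decoding centre, where codon and anticodon are checked. It had 10.06, 10.00 and 9.98 in chemostat, against 9.92, 9.96 and 9.93 in batch (change 0.08, adjusted p = 0.102). MRPS5 (uS5) had 8.08, 8.06 and 8.02 in chemostat, against 8.19, 8.23 and 8.04 in batch (change -0.10, adjusted p = 0.130). Only batch replicate 3 of MRPS5 reached down to the chemostat values, and without it the gene passed as lower, at -0.16 (adjusted p = 0.0135). MRPS16 (bS16) had 9.40, 9.41 and 9.36 in chemostat, against 9.46, 9.37 and 9.26 in batch (change 0.03, SE 0.056, adjusted p = 0.665). RSM28 (mS46) had 8.87, 8.72 and 8.72 in chemostat, against 8.85, 8.76 and 8.76 in batch (change -0.02, SE 0.054, adjusted p = 0.778). The groups of both genes overlap.

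Calls near the threshold were easily lost with 1 array left out, and mostly whichever array that was. MRPL51, MRPL39, MRPL38 and MRP51 fell by 0.14, 0.14, 0.10 and 0.11, with adjusted p = 0.0365, 0.042, 0.0322 and 0.035. The calls of MRPL51 and MRP51 ended when any of 5 of the 6 arrays was left out, and those of MRPL39 and MRPL38 when any of 4 was. MRPL51 (mL43) had 9.05, 9.03 and 9.03 in chemostat, against 9.27, 9.19 and 9.08 in batch, and MRP51 had 9.29, 9.28 and 9.26 in chemostat, against 9.43, 9.38 and 9.35 in batch. MRPL39 (bL33) had 9.54, 9.44 and 9.49 in chemostat, against 9.68, 9.68 and 9.53 in batch, and is the 1 called member whose groups overlap. MRPL38 (uL14) had 9.06, 9.03 and 9.02 in chemostat, against 9.17, 9.14 and 9.12 in batch. MRPL4 passed as lower without chemostat replicate 4 (-0.16, adjusted p = 0.0182) and MRPL22 without batch replicate 3 (-0.16, adjusted p = 0.0228). In 59 of 66 members the arrays of the modes did not overlap, 52 with chemostat lower and 7 with chemostat higher. Of all genes 81.7% had no overlap, 46.4% with chemostat lower and 35.3% with chemostat higher.

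The members that fell were spread over proteins of both origins. Of 41 measured members with a bacterial counterpart 29 fell (70.7%), 2 rose (4.88%) and 10 did not pass (median -0.27). Of 24 mitochondria-specific members 21 fell (87.5%), 2 rose (8.33%) and 1 did not pass (median -0.35). Over all genes 44.8% fell and 33.6% rose (median -0.06). RSM22 belongs to neither class. In the large subunit the medians were -0.28 for bacterial-type and -0.40 for mitochondria-specific proteins, and in the small subunit they were -0.27 and -0.33. The classes were not tested against each other.

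The genes lie on 14 chromosomes. Gene length, between 213 and 1887 bases, was weakly related to the change across the 66 members (Pearson's r = -0.20, Spearman's rho = -0.20). This is a description across genes of the same 6 arrays, and genes are not independent replicates.

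Most genes for mitoribosomal proteins with other names fell as well. Of 12 measured, 9 fell (75%, against 44.8% of all genes), 0 rose (against 33.6% of all genes) and 3 did not pass (median -0.21). At an unadjusted p under 0.05 the count of rises was also 0. MNP1, the gene of the stalk protein bL12, fell by 0.57 (SE 0.066, adjusted p = 7.43e-05), beside the falls of the stalk-base genes MRPL11 and MRPL19. NAM9, which encodes uS4, fell by 0.46 (SE 0.044). MRX14, RTC6 and EHD3 did not pass. VAR1, the ribosomal protein encoded in mitochondrial DNA, was not analysed here.

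Factors that work with the mitoribosome were measured too. Of 9 mitochondrial translation factors 3 fell (33.3%, against 44.8% of all genes), 1 rose (11.1%, against 33.6% of all genes) and 5 stayed short of the threshold (median change -0.11). TUF1, the elongation factor that delivers transfer RNA, had 10.15, 10.13 and 10.16 in chemostat, against 10.57, 10.48 and 10.43 in batch (change -0.35, SE 0.046, adjusted p = 0.000155). The release factor gene MRF1 fell by 0.17 (SE 0.037). MEF2, which acts in ribosome recycling, rose by 0.27 (SE 0.060, adjusted p = 0.00314).

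Among 7 genes for assembly of the mitoribosome and modification of its RNA, 4 fell (57.1%, against 44.8% of all genes) and 3 rose (42.9%, against 33.6% of all genes). MRM1, a methyltransferase for that RNA, had 8.22, 8.21 and 8.22 in chemostat, against 8.74, 8.76 and 8.76 in batch (change -0.54, SE 0.035, adjusted p = 2.11e-06). MRM2, another of its methyltransferases, had 7.95, 7.94 and 7.91 in chemostat, against 7.61, 7.66 and 7.65 in batch (change 0.29, SE 0.038, adjusted p = 0.000141). The helicase gene MRH4 fell by 0.52 (SE 0.040), and the pseudouridine synthase gene PUS5 rose by 0.22 (SE 0.039).

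Products of mitochondrial translation join nuclear-encoded subunits in complexes III and IV and in ATP synthase. All 30 nuclear genes listed for these rose, against 33.6% of all genes. The list was chosen with earlier results of these data known. Their changes lay between 0.24 for QCR8 and 0.93 for ATP7, with a median of 0.68. Complex II has no subunit from mitochondrial DNA, and its 4 listed genes, SDH1 to SDH4, rose by 1.21 to 2.24. Over all 34 listed genes the median was 0.70. None of the 66 ribosomal members rose as much as the median of that list. Transcripts of cytosolic ribosomal proteins fell in 125 of 127 cases (98.4%, against 44.8% of all genes). Their median of -0.58 is further below 0 than the -0.31 of the mitochondrial ones. Near-identical gene pairs are frequent among the cytosolic genes and may share a probe set's signal. These lists are set side by side as counts and medians from the same fit, and the differences between them were not tested.

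**Figure D4:**
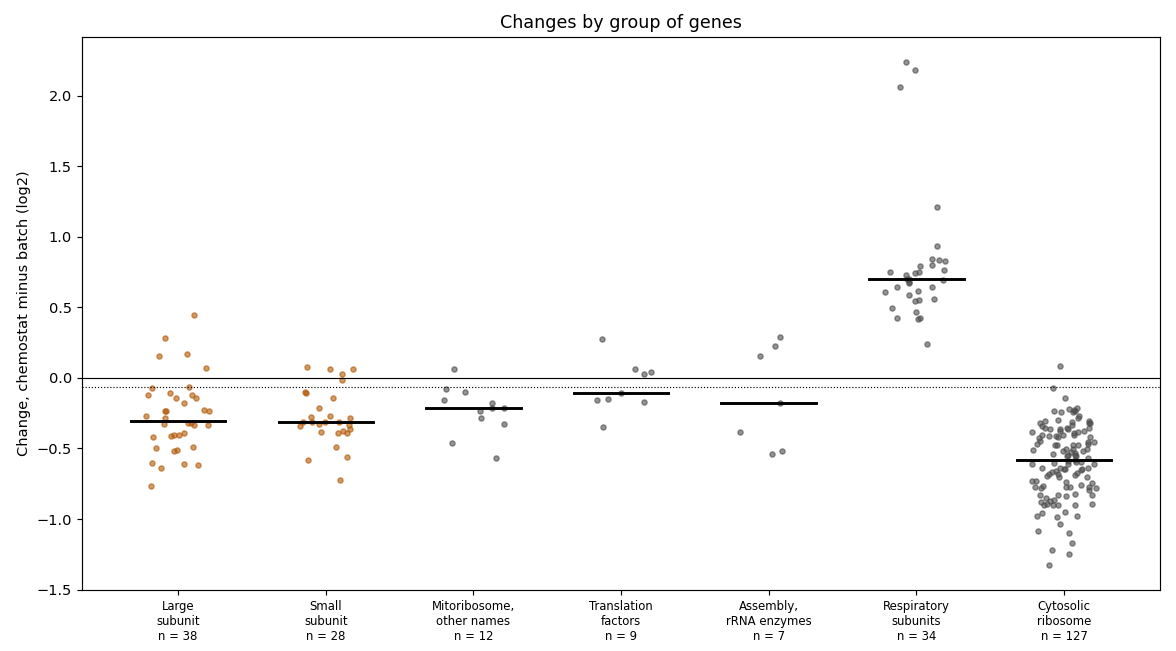
Change of each gene (chemostat minus batch, log2), by group of genes; black bars are medians, the solid line is 0 and the dotted line the median over all genes, -0.06. Mitochondrial ribosomal proteins (large subunit -0.30, small subunit -0.31) lie between cytosolic ribosomal proteins (-0.58) and respiratory subunits (0.70).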

How the data were processed

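Per the submitters' processing notes the authors summarised the arrays with PLIER. The sources used here give neither its version nor how background and differences between arrays were handled. The deposited values were taken as log2 signals from their range, 4.95 to 13.3, and were used without further scaling; with another base every change would be multiplied by a constant. Precision is limited by the number of arrays.

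The table holds 10928 probe sets, of which 5498 map to a single S. cerevisiae gene, by the platform annotation with symbols updated through the RefSeq table of assembly R64, which also gave chromosomes, gene lengths and the protein names of the ribosome. For 47 genes with several probe sets the brightest stood for the gene. Probe sets of fission yeast (1746, annotated outside that table with a lower-case symbol) gave the background. All 5449 genes were fitted together, chemostat against batch without covariates, with lmFit and eBayes of limma 3.58.1 under R 4.3.3 (two-sided), and p-values were adjusted by Benjamini-Hochberg over all of them. The script was tested on simulated data. Lists are described by counts and medians, with no test of the list. By rule, values on every array are given for the 6 largest rises and falls of each subunit that passed, for members that did not pass and for those whose call ended under an alternative; other names were chosen with values known. Alternatives were quantile normalization, centring on the gene or fission yeast median, array weights, removal of dim genes, eBayes with trend and robust, averaged probe sets, an adjusted p under 0.01, treat at 1.5-fold, and each array left out. Promoter motifs were planned but not analysed here. The members and lists were chosen with earlier results of these data known.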

Additional observations from a re-analysis of the deposited data

How the results depend on the processing

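Calls that passed were stable apart from those near the threshold. Leaving aside the 1.5-fold test, 46 of the 51 falls and 3 of the 4 rises kept call and direction under every alternative run. Members that did not pass were much less stable. Under those alternatives 50 of 66 members kept call and direction, and 49 of these had passed the main test. The other 16 changed call or direction under at least 1 alternative. With the 1.5-fold test, 1 large-subunit and 1 small-subunit member were lower (2 in all) and 0 were higher, since its threshold exceeds most of these changes. With arrays centred on the fission yeast median, 2 small-subunit members and 7 members in all were higher. That centring moved the median of all genes to -0.04, from -0.06 as deposited, and the large-subunit median was -0.27. The share of all genes called higher with it was not counted. After quantile normalization the large-subunit median was -0.28 and the median of all genes was -0.10. With single arrays left out, between 0 and 1 small-subunit members rose (1 without batch replicate 1), and the median over all members lay between -0.34 and -0.28. Uncalled genes near 0 changed sign: RSM28 to 0.011 with fission yeast centring and between -0.067 and 0.010 with an array left out, and MRPS16 between -0.025 and 0.078. After quantile normalization EHD3 (-0.13) and FMT1 (-0.11), both dim, changed sign and passed as lower. The cause was not tested. No paired analysis was possible because the replicate numbers of the 2 modes (1, 2 and 3, against 4, 8 and 9) share none.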
